A study of Homo sapiens with 8 samples.

Results

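The vehicle-treated cultures of a study of hepcidin regulation were described on their own, as the baseline transcriptome of HepG2 cells. HepG2 is an established human hepatocellular carcinoma line that is widely used in place of hepatocytes. The members are the 3 libraries whose titles name them as controls (DMSO 1, DMSO 2 and DMSO 3), out of 8 in the series, and no treated library was used. Growth medium held 10% serum. At 24 h from plating the serum was cut to 1%, and 8 h of equilibration and 18 h of exposure to 1% DMSO, the vehicle, followed. The other libraries of the series also held 1% DMSO, and none of the libraries used here was free of vehicle or kept in full serum, so the effects of the solvent and of low serum on these levels cannot be told apart. The 3 libraries are biological replicates by the series design. PolyA RNA was sequenced on a Genome Analyzer II.

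Hepatocytes secrete most proteins of the blood plasma, make bile acids and urea, store glycogen and iron, and oxidise foreign compounds with cytochromes P450. Liver carcinoma lines keep parts of this programme while they divide, and often also express genes of the fetal liver. FPKM (the fragments of a transcript scaled to its length and to the depth of sequencing) is a level per length, so genes may be set beside each other within a library. Values are given below in the order DMSO 1, DMSO 2 and DMSO 3.

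The label was checked against markers of the hepatocyte and of other cell types. All 10 hepatocyte markers were at 10 FPKM or more, and 9 of them were at 1000 or more by the median of the 3 libraries. Their summed level was 176009, 216454 and 193001 FPKM, or 9.19% ± 0.888 (SD, n = 3) of all FPKM. Apart from HNF4A this list holds genes of plasma proteins, and it was chosen with earlier results of these data known. Other hepatocyte genes, among them ARG1, CYP3A4, CYP2E1, SLC10A1, SLCO1B1 and ABCB11, were listed at 0 in every library. The list therefore does not stand for the whole hepatocyte programme. Of 9 endothelial markers found, 8 were at 0 in every library, including VWF, CDH5 and KDR, and the list summed to no more than 3.80 FPKM. Of 10 stellate cell and fibroblast markers, 7 were at 0, including COL1A1, COL1A2 and COL3A1, and ACTA2 gave nearly all of the sum of 254.3 to 265.3 FPKM. Red cell markers summed to 0, 0 and 20.7 FPKM. Neuron and muscle markers summed to between 82.8 and 87.6 FPKM. In bulk RNA, fewer cells of a type and less RNA per cell cannot be told apart.

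The macrophage and blood cell list summed to between 3250 and 4859 FPKM, and almost all of it was LYZ, with CD68, a lysosomal protein, at 40.6, 31.4 and 32.4 FPKM. LYZ encodes lysozyme, an enzyme of macrophages that some epithelia also secrete, and stood at 4622, 3219 and 4807 FPKM. PTPRC, CD163, MARCO, CSF1R, TIMD4, C1QA and CD3E were at 0 in all 3 libraries, and CD14 was at 0, 0 and 19.3 FPKM. The bile duct list was split: SOX9, EPCAM, KRT19 and TFF3 were above 100 FPKM, and KRT7, CFTR, SCTR and MUC1 were listed at 0 in every library.

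The files list 20897 genes. FPKM summed to 1851985, 2190452 and 2356530 per library, and read depth is unknown. DMSO 1 stood apart from the others. Across the 11946 genes that reached 1 FPKM in 2 or more libraries, the Pearson correlation of log2(FPKM + 1) was 0.973 between DMSO 2 and DMSO 3, 0.882 between DMSO 1 and DMSO 2 and 0.869 between DMSO 1 and DMSO 3. DMSO 1 listed 9806 genes at 0, against 8774 and 8347. Of the 1160 genes at 0 in exactly 1 library, 1081 were at 0 in DMSO 1, and 335 of those had 10 FPKM or more in both others. Why values are at 0 was not tested, and such a gene is described as listed at 0, not as absent. DMSO 1 was kept, what sets it apart was not tested, and values without it are given for the level classes, the highest genes and any count or median of a list that moved by more than 1.5 times.

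Each gene was put in a level class by the median of its 3 values. By this rule 8779 genes (42.0%) were at 0, 172 were at trace level (above 0 and below 1 FPKM), 2017 were low (1 to below 10), 6583 were moderate (10 to below 100), 3051 were abundant (100 to below 1000) and 295 were very abundant (1000 or more). Genes listed at 0 in all 3 libraries numbered 8209 (39.3%), and 9929 of the 20897 genes were at 10 FPKM or more by the median, which are the background for the counts below. Without DMSO 1 the same classes held 8263, 308, 2235, 6571, 3205 and 315 genes. The 295 very abundant genes carried 47.8% ± 1.72 (SD, n = 3) of the summed FPKM, and the 3051 abundant genes carried 39.0% ± 1.52. The 100 highest genes of each library held 34.4% ± 0.517 (SD, n = 3), and the highest gene alone 3.59% ± 0.964.

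**Figure D1:**
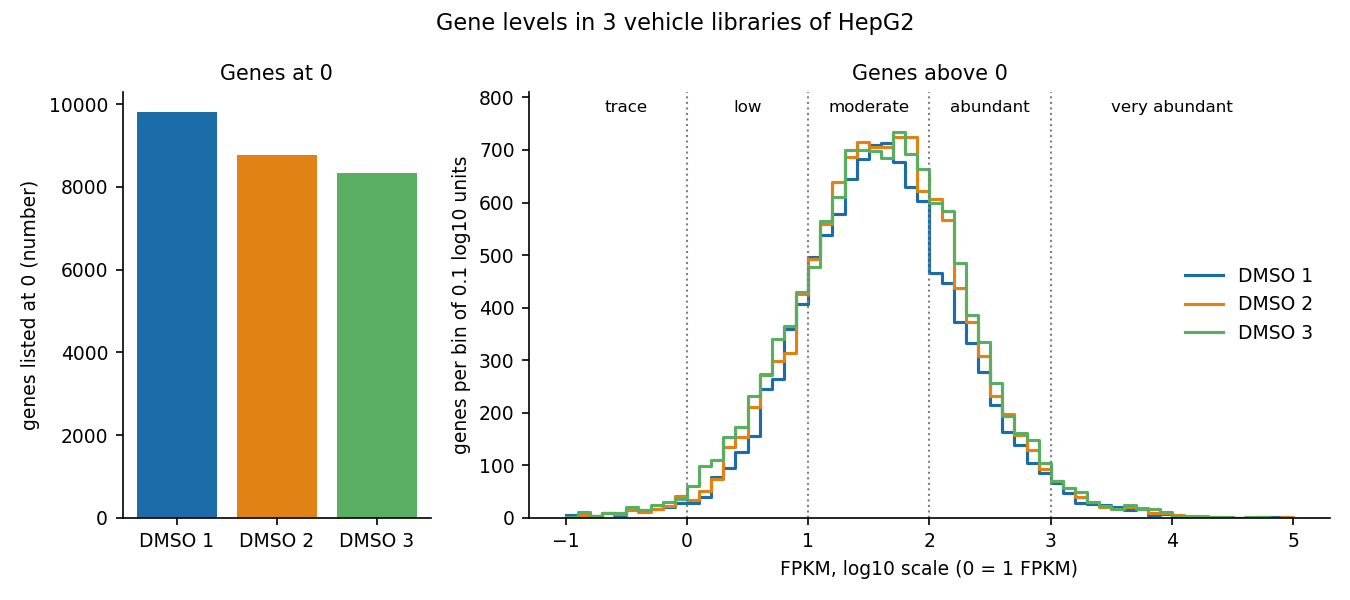
Left, the number of genes listed at 0 in each library. Right, the number of genes per bin of 0.1 log10 units of FPKM for genes above 0, with dotted lines at the class limits of 1, 10, 100 and 1000 FPKM. DMSO 1 has 9806 genes at 0, the most of the 3 libraries, and its curve lies under the others in the abundant range.

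Among protein-coding genes, 61.7% of 17871 reached 1 FPKM by the median. The share was 11.8% of 279 lincRNAs, 21.97% of 173 antisense RNAs and 20.8% of 178 unprocessed pseudogenes. Processed pseudogenes differed, with 60.0% of 180 at 1 FPKM or more and a median of 60.5 FPKM among those. Many of these are copies of ribosomal protein and other highly expressed mRNAs, and how reads were shared out between a gene and its near-identical copies was not stated, so the levels of such copies are uncertain.

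Of the 30 highest genes by the median, 27 were also among the 30 highest without DMSO 1. In single libraries, 21 of them were among the 30 highest of DMSO 1, 27 of DMSO 2 and 23 of DMSO 3. Only 14 were among the 30 highest of all 3 libraries. The 30 highest genes by the median comprised 13 cytosolic ribosomal proteins, 8 plasma proteins and 9 others. APOA2, the second main protein of high density lipoprotein, was the highest gene of each library, at 69651, 97618 and 60109 FPKM. APOA1, the main protein of the same particle, followed with 58896, 50548 and 50517 FPKM. Their ranges did not overlap, although DMSO 1's APOA1 value was close to the APOA2 value of DMSO 3. ALB, the gene of serum albumin, stood at 17949, 30831 and 40448 FPKM, and its range overlapped that of FTL, the light chain of the iron store ferritin, at 20042, 30080 and 29496 FPKM. These neighbours in the order do not differ beyond their spread.

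DHRS2, a short-chain dehydrogenase/reductase, was the fifth gene by its median, at 12494, 18540 and 23545 FPKM. SERPINA1, the elastase inhibitor alpha-1-antitrypsin, was at 12538, 16545 and 17238 FPKM. FABP1, the fatty acid carrier of the hepatocyte cytosol, was at 8564, 12192 and 11475 FPKM. These 3 genes, FGA and AFP were lowest in DMSO 1, as were ALB and FTL. Values of DMSO 1 were lower over genes at large, so being lowest there is not particular to these genes. The median-of-ratios scale factors, from genes above 0 in all 3 libraries, were 0.839 for DMSO 1, 1.06 for DMSO 2 and 1.12 for DMSO 3. The values given here are not scaled by them. EEF2, the translocase of translation elongation, went the other way, with 12754 FPKM in DMSO 1 against 6907 and 6573 in the others.

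**Figure D2:**
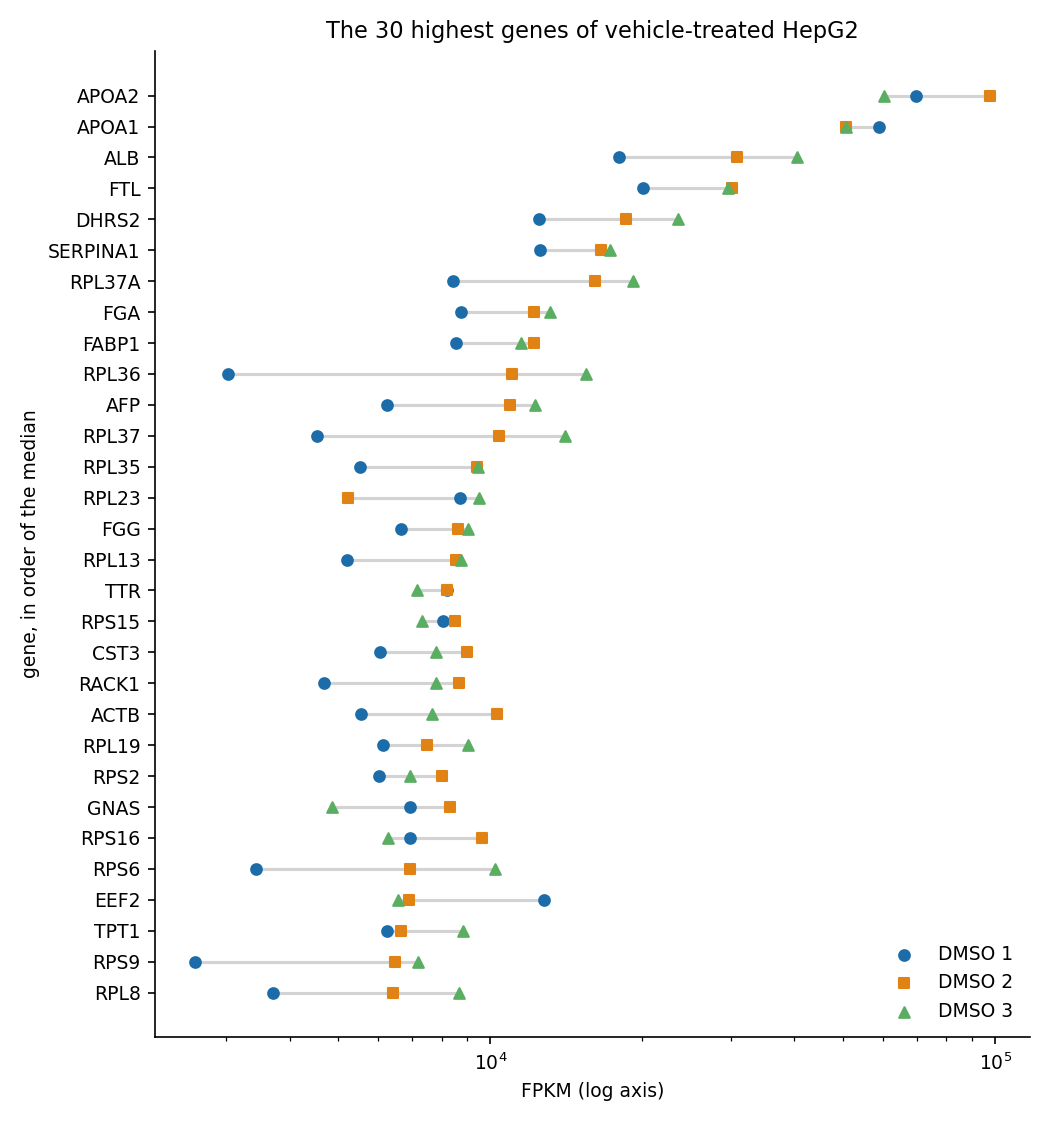
FPKM (log axis) of the 30 highest genes in each vehicle library, in order of the median; grey lines join the lowest and the highest library. APOA2 and APOA1 lie at 50517 FPKM or above in all 3 libraries, and several ribosomal protein genes, such as RPL36, span a wide range with DMSO 1 lowest.

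Plasma proteins are the main secreted product of hepatocytes. Carriers, protease inhibitors, acute phase proteins, apolipoproteins, coagulation factors and complement together had 116 genes in the files. They held 13.1% ± 0.858 (SD, n = 3) of the summed FPKM, with 29 genes very abundant and 31 at 0 by the median. The median member was at 63.2 FPKM, against 7.42 FPKM over all genes of the files.

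Among 32 carriers and protease inhibitors, 13 were very abundant and 4 were at 0 by the median. AFP, the albumin of the fetal liver and a marker of liver carcinoma, was at 6231, 10920 and 12244 FPKM, and ALB was 2.88, 2.82 and 3.30 times as high. TTR, the carrier of thyroxine and retinol-binding protein, was at 8187, 8195 and 7162 FPKM, one of the tightest among the highest genes. RBP4, its retinol-carrying partner, spread more, at 9570, 4292 and 3474 FPKM. TF, the iron carrier transferrin, was at 1451, 4403 and 5849 FPKM. Against these, AFM, GC and HRG, which encode, in that order, afamin, the vitamin D carrier and histidine-rich glycoprotein, were listed at 0 in all 3 libraries, and HPX, the haem carrier hemopexin, at 0, 0 and 2.89 FPKM.

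The 4 albumin family genes lie within 1762 kb on chromosome 4 (hg18), in the order GC, ALB, AFP and AFM. ALB (74488870 to 74505996) and AFP (74520744 to 74540358) were both very abundant, and GC (72826296 to 72868798) and AFM (74566326 to 74588582) were listed at 0. This cluster and those named below were picked after the levels had been seen. The start regions of a few such genes are shown because they let a reader set neighbouring and unlike genes side by side. They are RefSeq promoters of build GRCh38.p14, written 5′ to 3′ on the gene's strand, from 250 bases before to 50 bases after the start. The windows are chr4:73404037-73404336 on the plus strand for ALB, chr4:73435971-73436270 on the plus strand for AFP, chr1:161223579-161223878 on the minus strand for APOA2, chr2:216498594-216498893 on the plus strand for RPL37A and chr7:99784135-99784434 on the minus strand for CYP3A4. Capitals mark exact matches to TATAAA on the gene's strand and to GTTAAT (a core of HNF1 sites), CAAAGTCCA (HNF4) and TGTTTAC (FOXA) on either strand.
ALB: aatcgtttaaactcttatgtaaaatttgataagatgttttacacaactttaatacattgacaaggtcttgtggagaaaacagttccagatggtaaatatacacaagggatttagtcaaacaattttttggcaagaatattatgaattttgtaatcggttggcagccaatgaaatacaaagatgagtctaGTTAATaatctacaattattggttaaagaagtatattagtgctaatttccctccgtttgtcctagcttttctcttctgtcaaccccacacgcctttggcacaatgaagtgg
AFP: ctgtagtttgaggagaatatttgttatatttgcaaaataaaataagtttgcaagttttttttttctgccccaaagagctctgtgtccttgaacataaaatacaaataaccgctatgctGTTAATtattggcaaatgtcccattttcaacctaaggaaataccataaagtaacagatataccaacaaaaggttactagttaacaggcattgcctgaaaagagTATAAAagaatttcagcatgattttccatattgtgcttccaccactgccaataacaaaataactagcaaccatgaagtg
APOA2: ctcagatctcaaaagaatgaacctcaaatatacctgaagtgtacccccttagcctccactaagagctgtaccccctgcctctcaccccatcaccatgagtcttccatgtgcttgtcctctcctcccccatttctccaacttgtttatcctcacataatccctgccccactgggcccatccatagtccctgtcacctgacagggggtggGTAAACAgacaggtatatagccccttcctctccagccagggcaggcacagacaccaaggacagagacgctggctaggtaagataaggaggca
RPL37A: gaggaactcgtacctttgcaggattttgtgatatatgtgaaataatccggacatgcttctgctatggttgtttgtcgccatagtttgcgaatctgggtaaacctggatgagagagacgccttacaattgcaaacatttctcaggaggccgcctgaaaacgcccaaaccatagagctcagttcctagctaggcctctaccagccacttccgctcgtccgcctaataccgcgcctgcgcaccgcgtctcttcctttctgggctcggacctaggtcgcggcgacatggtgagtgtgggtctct
CYP3A4: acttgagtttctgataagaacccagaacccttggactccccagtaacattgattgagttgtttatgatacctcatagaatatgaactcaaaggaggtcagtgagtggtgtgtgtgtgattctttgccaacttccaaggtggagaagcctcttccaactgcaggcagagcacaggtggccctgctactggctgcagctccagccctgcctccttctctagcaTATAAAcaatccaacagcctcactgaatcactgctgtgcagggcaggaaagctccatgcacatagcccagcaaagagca
ALB and AFP each hold GTTAAT, at bases -61 and -132 from the start, and AFP and CYP3A4 hold TATAAA at base -29. APOA2 holds TGTTTAC on the opposite strand from base -42. Over 22114 RefSeq promoters of the same length, 8.24% hold TATAAA, 7.14% GTTAAT, 3.50% TGTTTAC and 0.353% CAAAGTCCA. RPL37A, a ribosomal protein gene at 8428, 16134 and 19141 FPKM, holds none of the 4 motifs in this window and has 19 CpG dinucleotides, where ALB has 4, AFP and APOA2 have 1 each and CYP3A4 has 0. Promoters could be matched to 10606 genes (50.8%), so a comparison of promoter composition across the level classes is void for lack of coverage.

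Apolipoproteins, the protein parts of lipoprotein particles, had 9 of 18 members very abundant. After APOA2 and APOA1 came APOE, the ligand of remnant receptors, at 4493, 5257 and 5177 FPKM, and APOH at 3709, 5182 and 4512 FPKM. APOB, the scaffold of very low density lipoprotein, was at 2306, 2107 and 1539 FPKM. APOC3, an inhibitor of lipoprotein lipase, was at 1027, 1540 and 1697 FPKM. LPA, the gene of apolipoprotein(a), and APOD were at 0 in every library. The genes APOA5, APOA4, APOC3 and APOA1 lie within 48.3 kb on chromosome 11, and their levels ran from 37.0, 17.5 and 26.6 FPKM for APOA4 to those of APOA1 given above. In the serpin cluster on chromosome 14, which spans 340.7 kb, SERPINA1 stood above SERPINA6, the cortisol carrier, at 612.4, 1145 and 1051 FPKM, and above SERPINA10, the lowest of the 6 genes measured, at 58.1, 71.6 and 63.8 FPKM. Proteins that load and remodel the particles were lower: LCAT, which esterifies cholesterol on high density lipoprotein, was at 942.1, 675.8 and 566.6 FPKM, and MTTP, which loads lipid onto APOB, at 83.4, 70.0 and 89.4 FPKM. LPL, CETP and ABCG1 were listed at 0.

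Coagulation genes covered the whole range, with 6 of 27 very abundant and 5 at 0. The 3 fibrinogen chains assemble in equal numbers, yet their transcripts differed in level. FGA was at 8737, 12204 and 13126 FPKM, FGG at 6642, 8613 and 9037 FPKM, and FGB at 1193, 1527 and 1428 FPKM. FGB lay below both other chains in each library, and FGA above FGG, with ranges of FGA and FGG that overlapped. SERPINF2, the plasmin inhibitor, was at 2580, 1654 and 1904 FPKM, and F2, prothrombin, at 654.8, 802.8 and 891.4 FPKM. F8, F9, F13A1, F13B and VWF were at 0 in all libraries, and PLG, plasminogen, was at 2.86, 2.61 and 2.93 FPKM.

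Of 30 complement genes 13 were at 0 by the median, near the share over all genes (42.0%), and the median member was at 3.33 FPKM. C3, the central component, was at 2872, 4217 and 3650 FPKM. CFI, the protease that cleaves C3b, was abundant at 245.2, 295.4 and 255.8 FPKM. C1QA, C1QB, C1QC, C7 and C9 were listed at 0 in each library.

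The fibrinogens led the acute phase list and SAA4, the constitutive serum amyloid A, was at 108.9, 169.9 and 196.4 FPKM. CRP, SAA1, SAA2 and LBP, which hepatocytes make in inflammation, were at 0 in all 3 libraries, and so was HAMP, the gene of the iron hormone hepcidin that the study is about. SERPINA3, an inhibitor that also belongs to this response, was at 38.1, 122.2 and 197.8 FPKM. The median member of the 14 found was at 2.29 FPKM, at 7.43 FPKM without DMSO 1 and at 6.29 FPKM without DMSO 2.

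**Figure D3:**
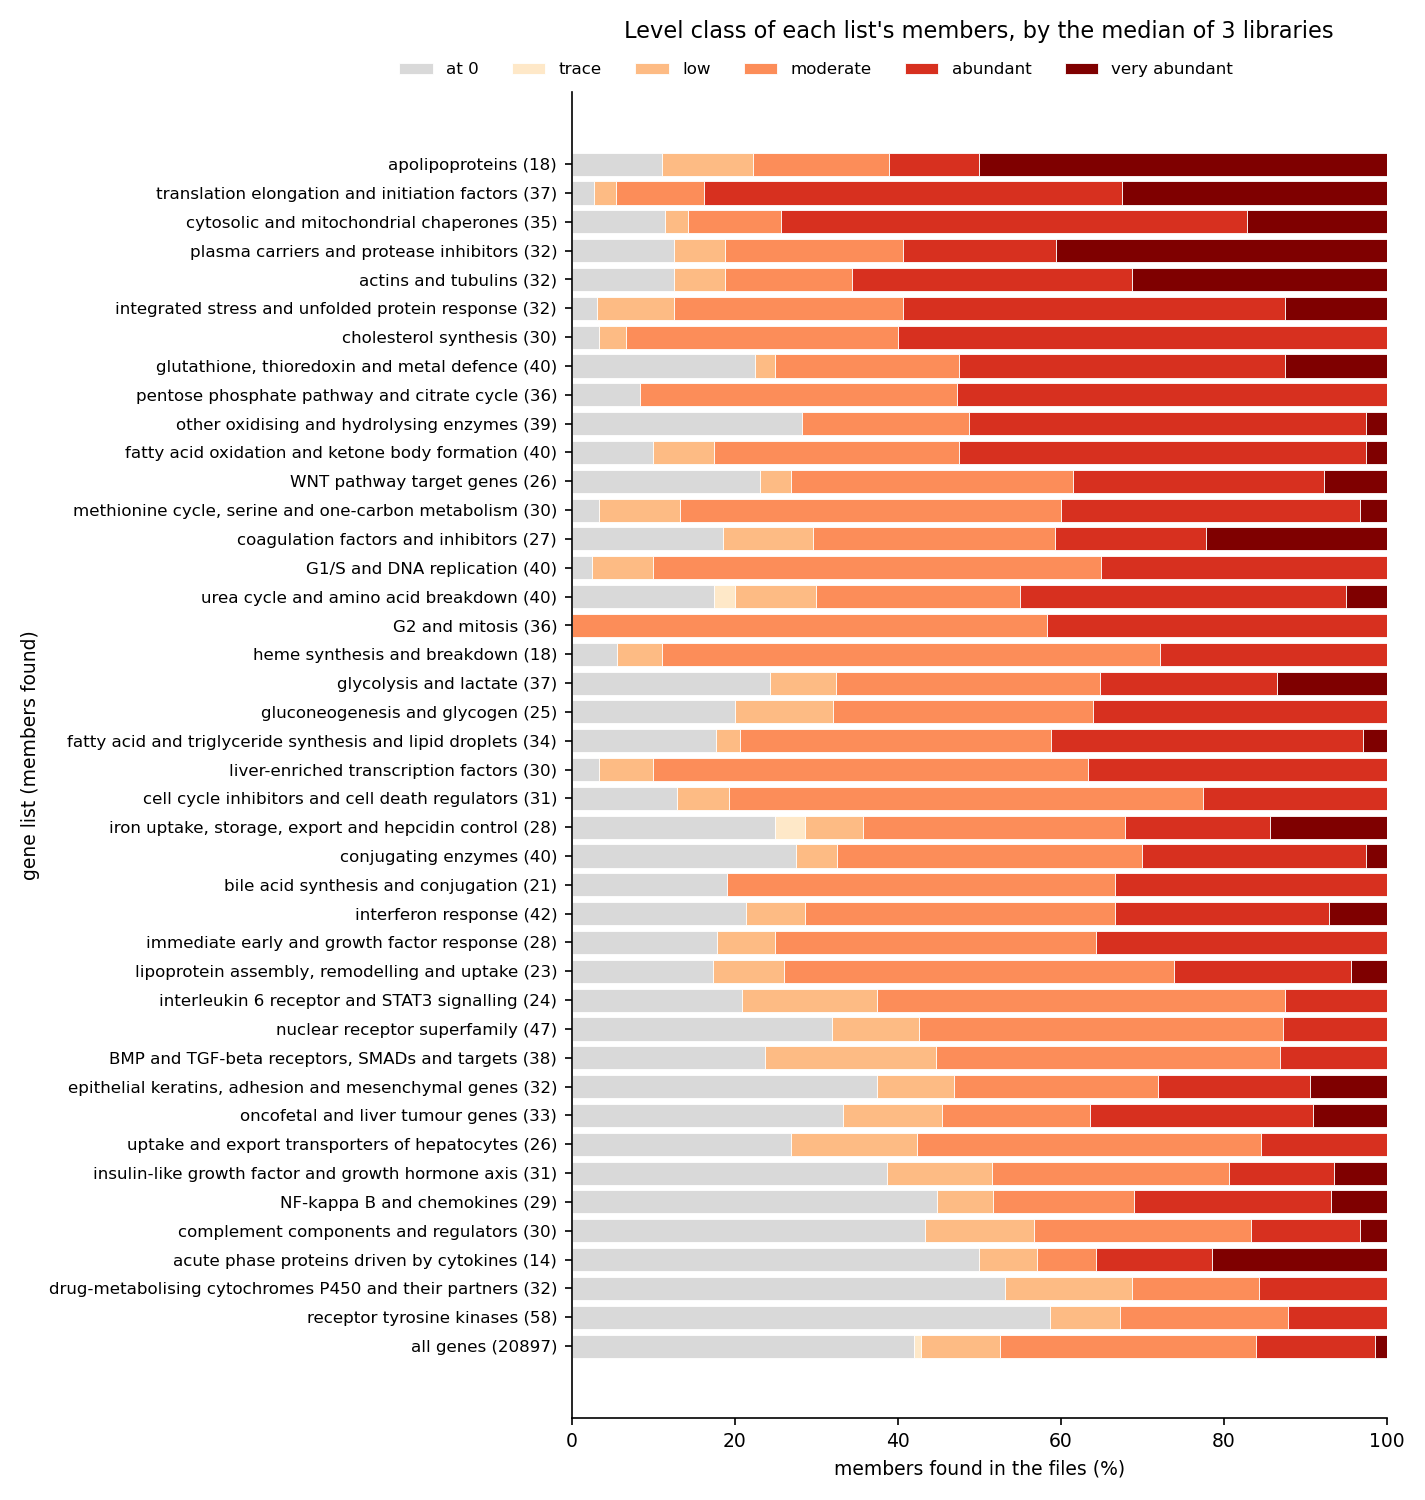
Share of each gene list's members in the 6 level classes, by the median of the 3 vehicle libraries; the number of members found is in parentheses, lists are in order of their median, and the lowest bar is all 20897 genes. Apolipoproteins have 9 of 18 members very abundant, G2 and mitosis genes have none at 0, and drug-metabolising cytochromes P450 and receptor tyrosine kinases have more than 50% of their members at 0.

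Liver-enriched transcription factors were present almost throughout: 27 of 30 were at 10 FPKM or more and none was at 0 in every library. CREB3L3, a membrane-bound factor of lipid and secretory genes, was at 986.2, 618.5 and 465.5 FPKM. NR0B2, a corepressor in bile acid feedback, was at 598.1, 461.7 and 552.9 FPKM. HNF4A, a master regulator of hepatocyte genes, was at 207.7, 226.9 and 295.5 FPKM, far above its relative HNF4G at 1.69, 6.96 and 6.54 FPKM. FOXA2, a pioneer factor of liver enhancers, was at 385.0, 313.7 and 343.1 FPKM. CEBPB was highest in DMSO 1, at 1269 FPKM against 362.5 and 487.2. ZBTB20, a repressor of AFP in the adult liver, was listed at 0, 0 and 2.93 FPKM.

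Of 47 nuclear receptors found, 27 were at 10 FPKM or more and 14 were at 0 in all libraries, against 9929 and 8209 of 20897 genes. After NR0B2 the highest were NR2F6 at 446.6, 410.3 and 331.5 FPKM and ESRRA, a regulator of mitochondrial genes, at 778.6, 347.0 and 223.9 FPKM. NR5A1, the steroidogenic factor of the adrenal and gonad, was at 496.2, 209.0 and 268.0 FPKM, whereas NR5A2, its liver relative, was at 6.93, 5.33 and 6.23 FPKM. The order of these relatives was the same in all 3 libraries. The receptors for oestrogen and progesterone, ESR1, ESR2 and PGR, were listed at 0. Receptors for drugs and bile acids were moderate: NR1I2 (the pregnane X receptor) was at 42.3, 45.1 and 50.7 FPKM and NR1H4 (the farnesoid X receptor) at 25.8, 27.2 and 27.5 FPKM. NR1I3, the constitutive androstane receptor, was listed at 0 in DMSO 1 and at 50.0 and 67.4 FPKM in the others.

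Of 32 drug-metabolising cytochromes P450 and their partners, 16 were at 0 in every library. The genes at 0 included CYP1A2, CYP2B6, CYP2C8, CYP2E1 and CYP3A4, drug-oxidising forms of adult liver. CYP2C18 and CYP2C19, which lie with CYP2C8 on chromosome 10, were at 0 too. In the CYP3A cluster on chromosome 7, CYP3A4 and CYP3A43 were at 0, while CYP3A5 was at 9.59, 10.1 and 6.38 FPKM and CYP3A7, the fetal form, at 3.03, 3.91 and 4.36 FPKM. The highest forms of this list were CYP4F12, at 89.8, 160.9 and 222.3 FPKM, and CYP2W1, a form known from tumours and fetal gut, at 155.9, 140.6 and 189.6 FPKM. Their electron donors were abundant: POR, the P450 reductase, was at 478.1, 480.7 and 656.4 FPKM and CYB5A, cytochrome b5, at 337.8, 485.9 and 589.5 FPKM. CYP1A1, inducible by aryl hydrocarbons, was listed at 0, 0 and 3.94 FPKM.

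Other oxidising and hydrolysing enzymes were better represented, with 28 of 39 at 10 FPKM or more and a median of 105.1 FPKM. AKR1C3, an aldo-keto reductase of steroids and prostaglandins, was at 1175, 1391 and 1390 FPKM. NQO1, a quinone reductase, was at 505.3, 583.4 and 612.5 FPKM, and ALDH2, which clears acetaldehyde, at 837.3, 541.2 and 570.1 FPKM. In the alcohol dehydrogenase cluster on chromosome 4, ADH5 was at 257.2, 351.9 and 413.6 FPKM and ADH6 at 238.4, 345.2 and 352.2 FPKM. ADH1A, ADH1B and ADH7 in the same 364.4 kb were at 0, as were the flavin monooxygenases FMO1 to FMO4 and PON1, the esterase of high density lipoprotein. AKR1C genes are near-identical to each other, so their individual levels are uncertain.

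Conjugating enzymes had 27 of 40 members at 10 FPKM or more. The microsomal glutathione transferase MGST2 was at 581.1, 1368 and 1432 FPKM and GSTO1 at 306.9, 690.1 and 1574 FPKM. GSTP1, a glutathione transferase that is high in many tumours but not in hepatocytes, was at 0 in all 3 libraries, as were NNMT, NAT2 and GLYAT. Within the UGT2B glucuronosyltransferases, UGT2B10 led with 701.1, 340.6 and 228.4 FPKM and UGT2B7 was at 127.6, 95.7 and 74.6 FPKM, while UGT2B15 and UGT2B17 were at 0. UGT2B genes are close paralogs and their split is uncertain.

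Of 26 transporters of the hepatocyte membrane, 15 were at 10 FPKM or more and 6 were at 0 in every library. Over all genes these counts were 9929 and 8209 of 20897. On the canalicular side ABCC2, the bilirubin conjugate pump, was at 295.6, 374.5 and 330.1 FPKM, and ABCB1 at 51.2, 64.3 and 54.0 FPKM, but ABCB11, the bile salt pump, was at 0. On the blood side SLC10A1, SLCO1B1 and SLCO1B3, uptake carriers of bile salts and organic anions, were at 0. AQP9, the glycerol channel, was at 0 too. Bile acid synthesis was retained in part. CYP27A1, which starts the acidic pathway, was at 633.7, 771.4 and 810.0 FPKM, and CYP7A1, the rate-limiting enzyme of the neutral pathway, at 21.6, 27.1 and 25.2 FPKM, while CYP7B1, CYP39A1 and CYP46A1 were at 0. FGF19, the gut hormone of bile acid feedback, was also at 0, and its receptor FGFR4 was at 339.0, 388.6 and 455.1 FPKM.

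Several steps of glucose metabolism have a liver form and a form of other tissues, and both were set side by side. Of 28 pairs compared over all pathways, 23 had ranges that did not overlap. The share among gene pairs at large was not computed, so this count says nothing particular about these pairs. No test was made, because 3 libraries cannot give a two-sided sign-flip p below 0.25. PKLR, the liver pyruvate kinase, kept a moderate level of 82.3, 71.9 and 60.5 FPKM under PKM at 1799, 1218 and 1041 FPKM. The glucose carriers showed the same order, with the liver form SLC2A2 at 52.4, 55.2 and 61.1 FPKM and the general form SLC2A1 at 702.9, 393.8 and 563.1 FPKM. LDHB was listed at 0 in all libraries and LDHA was at 880.8, 1166 and 1554 FPKM. ENO3, the muscle enolase, was at 19.8, 33.7 and 70.1 FPKM, far under the general form ENO1 at 835.1, 2000 and 2801 FPKM. The lactate dehydrogenase and enolase pairs are not read here as liver form against other form. Phosphofructokinase had the opposite order to pyruvate kinase and the glucose carriers. PFKL, the liver form, was at 152.4, 177.5 and 317.8 FPKM and PFKP at 0, 3.03 and 0 FPKM.

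Glucose production and glycogen genes were mixed in the same way. PCK1, the cytosolic entry enzyme of gluconeogenesis, was at 138.8, 156.6 and 159.0 FPKM and its mitochondrial partner PCK2 at 359.7, 290.0 and 448.5 FPKM. FBP1 was low, at 0, 9.67 and 10.4 FPKM. GYS2, the liver glycogen synthase, was at 0 and GYS1, the muscle form, at 39.8, 48.8 and 57.0 FPKM, whereas the liver phosphorylase PYGL was at 318.3, 366.9 and 300.6 FPKM, above the brain form PYGB at 73.4, 124.6 and 207.7 FPKM. The citrate cycle and pentose phosphate list had 33 of 36 members at 10 FPKM or more, with TKT at 637.5, 883.7 and 1091 FPKM.

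**Figure D4:**
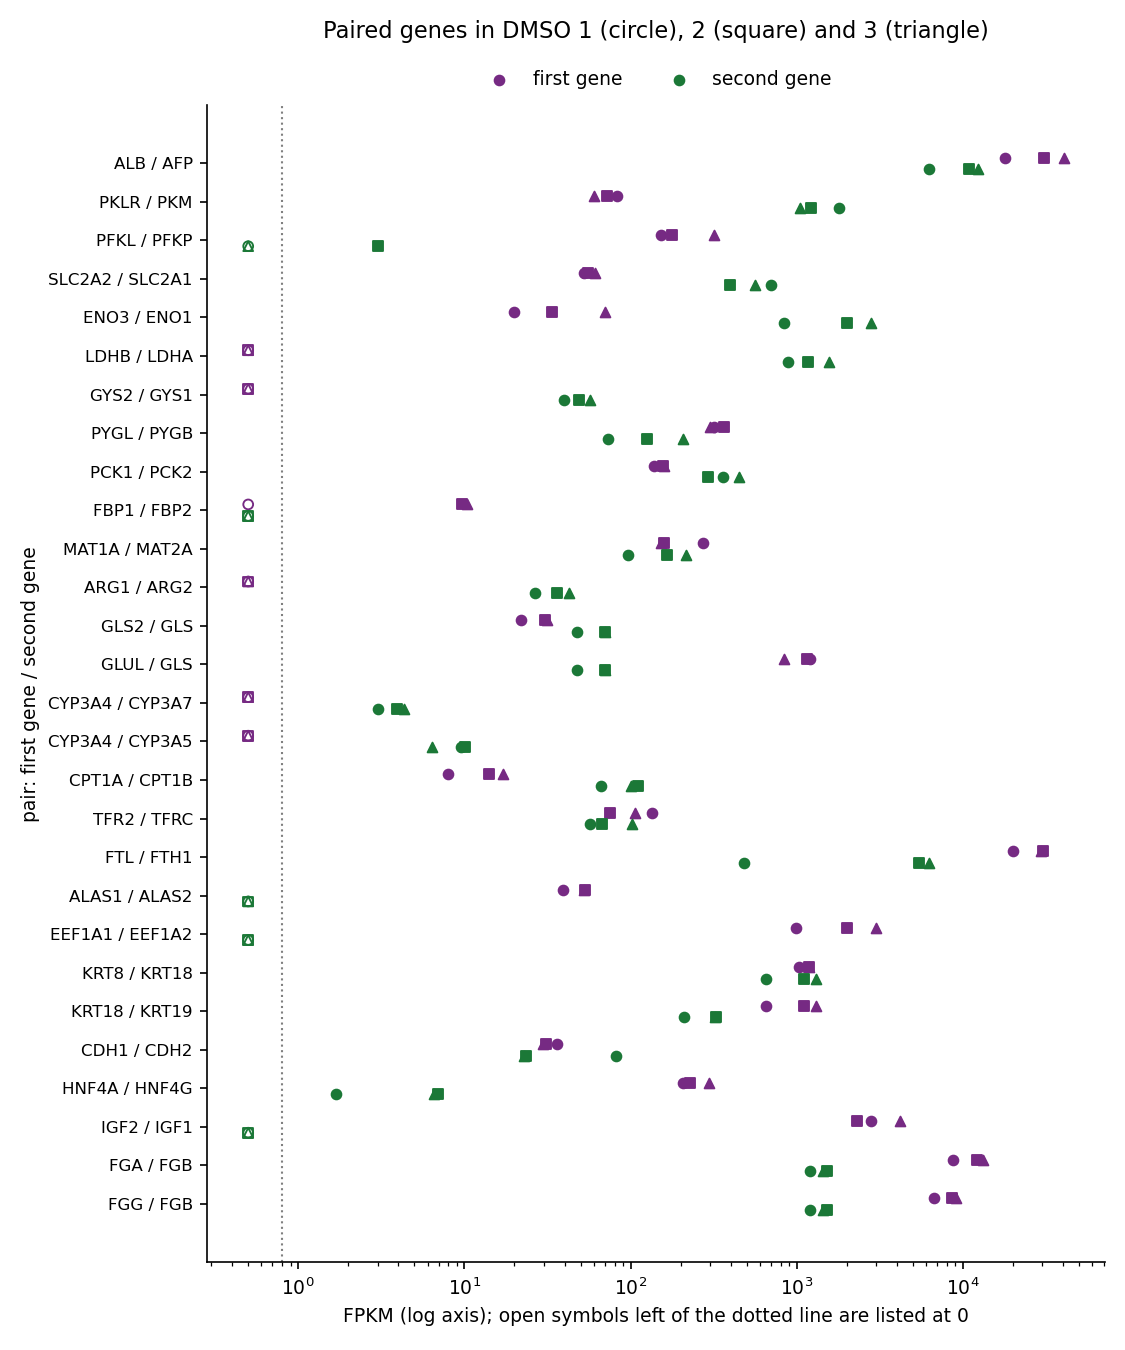
FPKM (log axis) of both genes of 28 pairs in DMSO 1 (circles), DMSO 2 (squares) and DMSO 3 (triangles), the gene named first in purple and the gene named second in green; open symbols left of the dotted line are listed at 0. GYS2, LDHB, ARG1 and CYP3A4 are at 0 in every library while their partners are above 0, and FTL lies above FTH1 in all 3.

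Lipid synthesis was well represented. Of 30 cholesterol synthesis genes, 28 were at 10 FPKM or more. FDFT1, squalene synthase, was at 406.7, 700.3 and 680.3 FPKM, HMGCS1, which acts early in the pathway, at 160.2, 210.6 and 170.5 FPKM, and SQLE, the enzyme after squalene synthase, at 738.4, 306.0 and 267.7 FPKM. INSIG1, which holds the sterol sensor in the endoplasmic reticulum, was the only member at 0 in all libraries. Fatty acid synthesis was led by MLXIPL, the carbohydrate-sensing factor ChREBP, at 1023, 958.2 and 1256 FPKM and by SCD, the desaturase, at 370.9, 660.8 and 796.9 FPKM, and THRSP, PLIN1 and CIDEA, genes prominent in adipose tissue, were at 0.

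Fatty acid oxidation had 33 of 40 members at 10 FPKM or more, led by FABP1. ACAA1, the thiolase of peroxisomes, was at 441.7, 924.8 and 911.7 FPKM and ACADVL, which starts mitochondrial oxidation of long chains, at 478.8, 915.7 and 786.4 FPKM. The entry step was lower. CPT1A, the liver carnitine transferase, was at 8.02, 14.1 and 17 FPKM and the muscle form CPT1B at 66.4, 111.1 and 100.4 FPKM. ACADL, FGF21 and CYP4A11 were at 0.

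The urea cycle and amino acid list was led by GLUL, which makes glutamine from glutamate and ammonia, at 1207, 1148 and 838.5 FPKM, and by FTCD, an enzyme of histidine breakdown, at 675.2, 1004 and 1087 FPKM. HPD and HGD, which degrade tyrosine, were abundant by the median. HPD was at 1208, 440.2 and 551.0 FPKM and HGD at 1145, 322.6 and 462.0 FPKM, both highest in DMSO 1. Urea cycle genes differed: CPS1 was at 67.1, 42.7 and 32.7 FPKM and ASS1 at 114.5, 122.4 and 152.0 FPKM, while OTC and ARG1 were at 0 in each library and ARG2, the mitochondrial arginase, was at 26.4, 35.9 and 42.8 FPKM. TDO2 and SDS were at 0 as well. In the methionine and one-carbon list 26 of 30 members were at 10 FPKM or more, with AHCY at 2613, 2180 and 1363 FPKM and the serine enzymes PHGDH and SHMT2 abundant. MAT1A, the liver form of methionine adenosyltransferase, and MAT2A, the growth form, were at 271.4, 159.2 and 151.2 FPKM and at 96.0, 166.2 and 216.0 FPKM, ranges that overlapped.

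The iron list is the setting of the hormone under study. HAMP, HJV (the BMP co-receptor hemojuvelin), BMP2, HEPH, SLC39A8 and FTMT were at 0 in all 3 libraries. FTL led the list, and FTH1, the heavy chain, was at 481.9, 5402 and 6237 FPKM with a FAIL status in DMSO 2 and DMSO 3, so its level is uncertain. TFR2, the iron sensor of hepatocytes, was at 135.3, 75.3 and 106.9 FPKM and TFRC, the uptake receptor, at 57.2, 67.4 and 102.4 FPKM, with TFR2 the higher in all 3 libraries and ranges that overlapped. SLC39A14, a carrier of free iron, was at 276.8, 336.8 and 456.5 FPKM, and SLC40A1, the exporter ferroportin, at 37.4, 51.9 and 46.4 FPKM. TMPRSS6, the protease that removes hemojuvelin, was at 21.1, 19.8 and 24.2 FPKM. Among haem synthesis enzymes UROD was the highest, at 299.0, 358.1 and 434.8 FPKM, with ALAS1, which starts the pathway, at 39.0, 53.2 and 52.2 FPKM and the red cell form ALAS2 at 0.

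Signalling parts upstream of hepcidin covered the range from 0 to abundant. In the BMP and TGF-beta list 21 of 38 genes were at 10 FPKM or more and 9 were at 0 in every library, among them BMPR1B, ACVRL1, ATOH8 and BMP7. Over all genes these counts were 9929 and 8209 of 20897. BMP4, a ligand, was at 956.7, 854.7 and 629.0 FPKM. ID1, a direct target of BMP signals, was at 1912, 426.0 and 592.8 FPKM, ID2 at 274.9, 332.0 and 385.2 FPKM, and ID3 at 94.0, 50.3 and 103.5 FPKM. FST, an antagonist of activin, was at 231.6, 500.1 and 662.0 FPKM. SMAD3 was alike in all libraries, at 56.6, 56.0 and 56.5 FPKM. In the interleukin 6 list STAT3 was at 150, 111.2 and 107.6 FPKM, and IL6 and SOCS3, its ligand and its feedback inhibitor, were at 0.

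Of 58 receptor tyrosine kinases, 32 were at 0 in every library. ERBB3 was at 586.2, 744.8 and 516.8 FPKM, FGFR3 at 345.3, 405.2 and 508.3 FPKM, and INSR, the insulin receptor, at 137.2, 145.7 and 146.1 FPKM. ERBB4, PDGFRA, KIT, FLT3, CSF1R and KDR were among those at 0. In the growth hormone and insulin-like growth factor axis the ligand IGF2 was at 2801, 2305 and 4189 FPKM. The ligand IGF1 and GHR, the growth hormone receptor, were at 0. IGFBP1, a binding protein secreted by liver, was at 1241, 1168 and 1964 FPKM, and IGFBP3 and IGFBP5 were at 0.

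Oncofetal genes had 18 of 33 members at 10 FPKM or more and 10 at 0 in each library, against 9929 and 8209 of 20897 genes. AFP and IGF2 were joined by GPC3, a membrane proteoglycan used as a marker of liver carcinoma, at 5848, 5843 and 4836 FPKM, and by DLK1, a fetal antigen, at 1090, 614.8 and 954.7 FPKM. H19, the noncoding neighbour of IGF2, lies within the same 154.4 kb on chromosome 11 and was listed at 0. All 23 MAGE cancer testis genes were listed at 0 in every library, LIN28A and REG3A were at 0, and TERT, the telomerase catalytic subunit, was listed at 0, 9.59 and 9.59 FPKM.

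Of 26 WNT target genes 19 were at 10 FPKM or more, and their median was 80.5 FPKM. HepG2 is known to carry a deletion in CTNNB1 that stabilises beta-catenin, and the levels of targets are given here as a description. NOTUM, a secreted inhibitor of WNT ligands, was at 3488, 1465 and 1845 FPKM, SP5 at 374.4, 755.3 and 942.2 FPKM, and NKD1 at 348.5, 225.9 and 258.8 FPKM. AXIN2 and LGR5, 2 widely used readouts, were moderate by the median, at 92.8, 70.3 and 90.4 FPKM and at 46.1, 105.6 and 89.4 FPKM. LEF1, DKK4 and NKD2 were at 0. Among genes that mark hepatocytes near the central vein, GLUL and the ammonium carrier RHBG (529.8, 677.5 and 880.9 FPKM) were high while CYP2E1, CYP1A2, CYP3A4 and SLCO1B3 were at 0. The list for hepatocytes near the portal vein had 8 of 15 members at 10 FPKM or more, and the central list 10 of 15, with medians of 25.1 and 25.2 FPKM.

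Transcripts of KRT8 and KRT18, the keratin partners of simple epithelium, were very abundant by the median, and epithelial structure was not measured. KRT8 was at 1026, 1182 and 1188 FPKM and its partner KRT18 at 654.7, 1102 and 1298 FPKM, while KRT5 and KRT14, the keratins of stratified epithelium, and KRT7 were at 0. CDH1 was at 36.2, 30.8 and 29.8 FPKM and CDH2 at 81.2, 23.4 and 22.7 FPKM, so that CDH2 exceeded CDH1 only in DMSO 1. VIM, the mesenchymal filament protein, SNAI2 and TWIST1 were listed at 0, and FN1, fibronectin, which hepatocytes secrete to plasma, was at 3242, 1819 and 2591 FPKM, with a FAIL status in DMSO 1 and DMSO 2 that leaves its level uncertain. In the cytoskeleton list ACTB led with 5551, 10296 and 7677 FPKM and TMSB10 was at 1804, 2699 and 3517 FPKM, whereas TMSB4X, its relative, was at 0.

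Nearly all listed genes of cell division were at 10 FPKM or more. All 36 G2 and mitosis genes were at 10 FPKM or more by the median, the lowest being CENPE at 11.7 FPKM. Apart from the hepatocyte markers and the housekeeping genes, every other list held at least 1 gene at 0 by the median. UBE2C, which marks cyclins for breakdown, was at 275.1, 519.7 and 368.3 FPKM, CCNB1 at 131.0, 206.8 and 212.3 FPKM, and TOP2A at 194.5, 339.4 and 203.2 FPKM. Of 40 replication genes 36 were at 10 FPKM or more, led by PCNA at 588.8, 775.3 and 874.1 FPKM, and CCND2 was at 0. CDKN1A, an inhibitor of cyclin-dependent kinases, was at 45.4, 114.2 and 120.0 FPKM. CDKN1C and PMAIP1 were listed at 0. Immediate early genes had 21 of 28 members at 10 FPKM or more, with MYC at 189.8, 386.8 and 340.8 FPKM and EGR1 at 147.1, 185.1 and 170.8 FPKM, and DUSP4, KLF2 and KLF4 were at 0.

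Secretory and stress genes were high. In the stress response list 28 of 32 genes were at 10 FPKM or more, with a median of 152.0 FPKM. P4HB, a protein disulfide isomerase, was at 1900, 2331 and 2754 FPKM, ATF4, the factor of the integrated stress response, at 875.9, 1791 and 1841 FPKM, and HSPA5, the main chaperone of the endoplasmic reticulum, at 602.4, 1076 and 879.8 FPKM. ATF4's target CHAC1 was at 0 and GDF15, a stress cytokine, at 416.9, 758.9 and 811.3 FPKM. Chaperones of the cytosol included HSP90AB1 at 1548, 3017 and 3402 FPKM, while HSPA6 and HSPB8, which heat induces or muscle expresses, were at 0. Of the redox list PRDX1 was at 4775, 4697 and 5978 FPKM and SOD1 at 624.0, 2065 and 2564 FPKM, and 7 of 40 members were at 0 in all libraries, 5 of them metallothioneins, which are near-identical copies with uncertain levels.

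Of 42 interferon response genes, 30 were at 10 FPKM or more. B2M, the light chain of class I histocompatibility molecules, was at 2371, 1794 and 1666 FPKM, and the antiviral membrane protein IFITM3 at 1994, 2208 and 1791 FPKM. IFI44L, RSAD2, OAS2, IFIT2, IFI27 and IRF7, which interferon induces, were at 0. The chemokine list held IL32 at 1893, 1559 and 2049 FPKM and CCL20, which attracts lymphocytes, at 3216, 1005 and 1319 FPKM, whereas CXCL1, CXCL2, CXCL10, CCL2, IL1A and IL1B were at 0 in each library.

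Genes that every cell uses were almost without gaps. The families of 5 core machineries (cytosolic ribosome, mitochondrial ribosome, respiratory chain and ATP synthase, proteasome, and aminoacyl-tRNA synthetases) had 297 genes in the files, of which 285 were at 10 FPKM or more and 9 were at 0. The genes at 0 were all forms known to be restricted to other tissues: RPL10L, PSMA8, COX8C, COX6B2 and COX7B2 of testis, PSMB11 of thymus, COX6A2 and COX7A1 of muscle, and COX4I2 of lung. The general form was high in each case. COX6A1 was at 567.5, 867.6 and 1416 FPKM, and COX8A at 393.2, 664.3 and 1642 FPKM. The remaining 3 genes under 10 FPKM were RPL3L, RPL39L and NDUFA11, a subunit of complex I without such a restriction, at 2.39, 0.873 and 3.02 FPKM. RPS26, at 11, 7.28 and 16.9 FPKM, and NDUFA13, at 0, 17.6 and 13.1 FPKM, passed the limit only narrowly by the median. None of the 14 housekeeping genes found was at 0. These 9 genes were singled out after their values had been seen.

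Cytosolic ribosomal proteins held 12.7% ± 2.38 (SD, n = 3) of the summed FPKM, with 10.4% in DMSO 1, 12.5% in DMSO 2 and 15.1% in DMSO 3, and 63 of 76 were very abundant. Reads of their many pseudogenes may be shared with them, so single levels are uncertain. Respiratory chain and ATP synthase subunits held 2.52% ± 0.333 and were led by COX4I1 at 1758, 3490 and 2976 FPKM. All 70 mitochondrial ribosomal proteins and all 34 aminoacyl-tRNA synthetases were at 10 FPKM or more. Aminoacyl-tRNA synthetases held 0.255% ± 0.0159. The elongation factor EEF1A1 was at 994.0, 2003 and 2991 FPKM, with its neuron and muscle form EEF1A2 at 0.

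Families known from other tissues were mostly listed at 0. Of 316 olfactory receptor genes 315 were at 0 in every library, and the exception, OR2A4, was at 0, 5.14 and 4.44 FPKM. All 70 keratin-associated proteins, 41 beta-defensins and 9 interferon alpha genes were at 0. Of 17 bitter taste receptors TAS2R14 alone was above 0, at 0, 12.8 and 23.9 FPKM, and without DMSO 3 none was at 10 FPKM or more. Of 18 GABA-A receptor subunits only GABRE was above 0, at 33.0, 59.5 and 49.0 FPKM, a moderate level in all 3 libraries. HOX genes, which encode position along the body axis, were at 0 in 31 of 37 cases, and HOXA3 was the highest at 90.8, 82.7 and 83.3 FPKM. Of 38 interleukins, 33 were at 0, and IL32 was the only one at 10 FPKM or more by the median, with IL34 (23.1, 7.29 and 5.78 FPKM) as the second without DMSO 2 or without DMSO 3.

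Solute carriers had 178 of 359 members at 10 FPKM or more and 128 at 0 in all libraries, near the shares over all genes (9929 and 8209 of 20897). They were led by the mitochondrial carriers SLC25A39 (1334, 943.6 and 828.0 FPKM) and SLC25A3, the phosphate carrier. ABC transporters had 26 of 45 at 10 FPKM or more. Of 475 zinc finger genes named ZNF, 203 were at 10 FPKM or more and 17 were abundant. ZNF593 was the highest, at 194.3, 256.7 and 314.1 FPKM. The family median was 7.84 FPKM, close to the 7.42 FPKM over all genes, but the spread over the level classes was unlike. By the median 105 of the 475 were at 0 and 165 were low, against 8779 and 2017 of 20897 genes. Collagens were at 0 in 31 of 44 cases. The fibroblast collagens COL1A1, COL1A2 and COL3A1 were at 0, and 4 collagens were abundant by the median. Among these 4, COL27A1 was at 1211, 695.6 and 712.9 FPKM and COL9A3, a cartilage chain, at 906.3, 399.4 and 432.8 FPKM. COL18A1, a chain of basement membranes that liver makes, was at 311.0, 241.3 and 372.2 FPKM. Both COL27A1 and COL9A3 were highest in DMSO 1.

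Chromosomes differed in the level of their genes. Olfactory receptors and keratin-associated proteins were left out, and genes at 1 FPKM or more by the median counted as detected. The median of detected protein-coding genes was 91.3 FPKM on chromosome 20 (506 genes, 61.5% detected), 71.6 on chromosome 16, 58.9 on chromosome 2 and 58.2 on chromosome 17, against 43.9 FPKM over all chromosomes but Y. The share detected ran from 48.6% on chromosome X to 73.4% on chromosome 16. The lowest medians were 26.7 FPKM on chromosome 18 and 28.8 on chromosome 4, although chromosome 4 holds the albumin and fibrinogen clusters. Chromosomes 20 and 16 ranked 1 and 2 of 23 in each library taken alone, and chromosomes 2 and 17 ranked 3 or 4. Chromosome 18 ranked 23 in every library. In DMSO 1, DMSO 2 and DMSO 3 the median on chromosome 20 was 69.1, 91.3 and 101.8 FPKM, and on chromosome 18 it was 23.1, 25.3 and 27.1 FPKM, so the ranges of these chromosomes did not overlap. HepG2 is an aneuploid line described as having extra copies of chromosomes 2, 14, 16, 17 and 20. These rank 3, 6, 2, 4 and 1 in the order of medians. In the single libraries chromosome 14 ranked 8, 6 and 7. Chromosome 6, which is not in that set, ranked 5 in each library, above chromosome 14. Copy number was not measured here, and its part in the order was not tested.

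**Figure D5:**
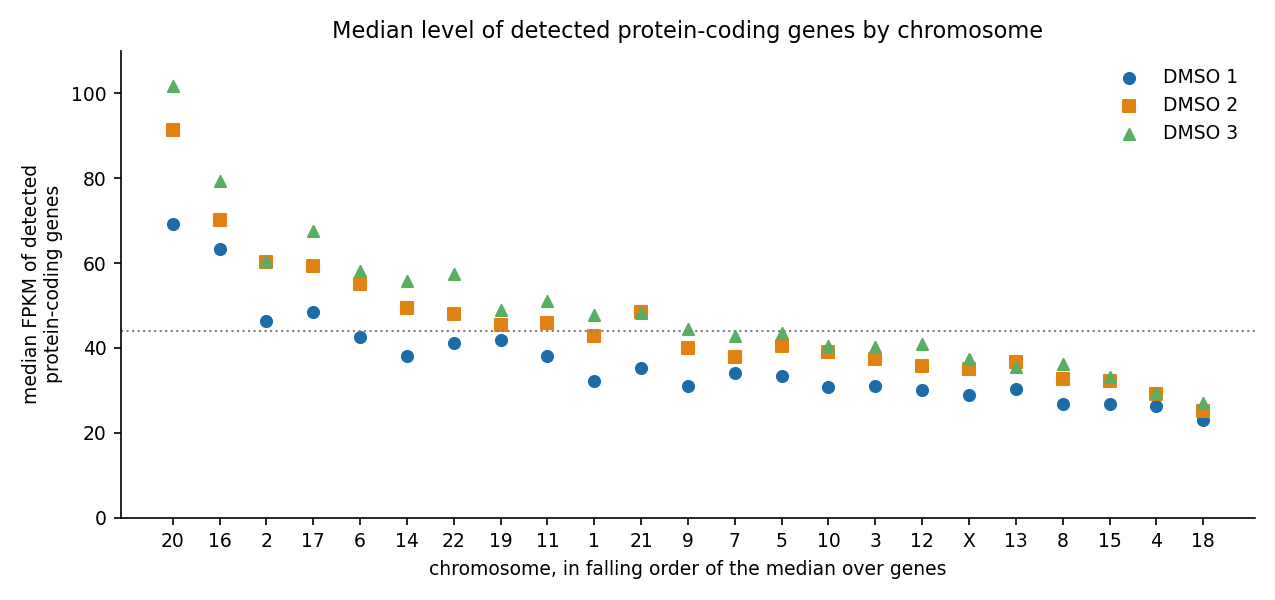
Median FPKM of detected protein-coding genes on each chromosome except Y, for DMSO 1 (circles), DMSO 2 (squares) and DMSO 3 (triangles), with chromosomes in falling order of the median; the dotted line is the median of 43.9 FPKM over all of them. Chromosomes 20 and 16 are the highest in all 3 libraries and chromosome 18 is the lowest.

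The spread between libraries was wide for replicates of one condition. Over the 10958 genes above 0 in all 3 libraries the highest value was 1.71 times the lowest at the median, and 34.6% of these genes differed by more than 2-fold. The ratio was similar in the moderate (1.70), abundant (1.71) and very abundant (1.82) classes. Among genes at 100 FPKM or more by the median, the widest were RPL37AP8, a ribosomal protein pseudogene, at 52.9, 250 and 1633 FPKM, and RSPO1, a WNT agonist, at 8160, 312.3 and 282.3 FPKM. NAGPA, an enzyme of lysosomal targeting, was at 2971, 120.4 and 191.3 FPKM, and LSM14B at 2577, 252.8 and 219.3 FPKM. THAP3 went the other way, at 7.85, 217.3 and 222.8 FPKM. DMSO 1 was the library that differed for all of these but RPL37AP8. Genes at 0 in DMSO 1 and above 100 FPKM in both others included ISG15 (142.4 and 212.3 FPKM), SDF2L1 (141.0 and 266.6 FPKM) and MRAP (119.4 and 180.9 FPKM).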

How the data were processed

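PolyA RNA of HepG2 cells was sequenced. Per the submitters' processing notes, reads were aligned to hg18 with TopHat 1.1.0 and Bowtie and quantified with Cufflinks 1.0.3 and Cuffdiff. Their settings are not given in the sources used here. The authors deposited 1 FPKM value per gene, with its status, in each file. Values were used as deposited, with no further scaling. The lowest values above 0 had Spearman correlations with transcript length of -0.0442, -0.0546 and -0.0939 in DMSO 1, DMSO 2 and DMSO 3. This cannot show whether values step in whole reads. Read depth is unknown and no count test was made. FPKM of all 20897 genes was classed by the median of the 3 vehicle libraries, and a gene was called detected at 1 FPKM or more. The 5 treated libraries were not used. Python 3.11.15, pandas 2.3.3, NumPy 2.4.6, SciPy 1.17.1 and Matplotlib 3.10.9 were used, and the scripts were tested on simulated data. Alternatives were the mean in place of the median, scaling of libraries, a pseudocount of 0.1, filters on status and symbol, and each library left out.

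The members and the 52 lists, 22 families and 30 pairs were chosen with earlier results of these data known. Named genes were the 30 highest, up to 8 highest and 6 at 0 of each list, up to 5 highest of each family, both members of each pair, the 10 most variable above 100 FPKM and 10 at 0 in 1 library. RBP4, HPX, PLG, ZBTB20, NR5A2, NR1I2, NR1H4, CYP1A1, SLC40A1, TMPRSS6, SMAD3, TERT, CENPE, EGR1, RPS26, NDUFA13, the members of chromosome clusters and the tissue forms of core families were added after their values were seen. Symbols came from a table that pairs Ensembl gene IDs with names and matched 19069 genes (91.3%). A few genes of the lists are not reported here.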

Additional observations from a re-analysis of the deposited data

How the results depend on the processing

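No test was made, and each value was recomputed under the alternatives. Of 876 recomputed values, 792 moved by less than the spread between libraries, or by less than 1.5 times for a count of genes, and 84 moved by more. Of these 84, 50 came from scaling each library to a sum of 1000000, which lowers every FPKM by construction. Under that scaling 423 genes were at trace level, 3740 were low, 1469 abundant and 124 very abundant. The trace class also held 437 genes by the mean of the 3 libraries, 101 among genes with a symbol, and 260 to 373 with a library left out. Among genes with a symbol, the 100 highest held 35.1% and the 1000 highest 68.5% of the summed FPKM. The mean Pearson r between libraries was 0.908 with a pseudocount of 1 and 0.851 with a pseudocount of 0.1. Under median-of-ratios scaling, and without values of a status other than OK, no value moved by more than these limits. No paired analysis was possible because a single group was described. Read depth is unknown, so the counting error of low levels cannot be given, and no gene listed at 0 can be called absent.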
